A study of Mus musculus with 12 samples.

Results

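The miR-23, miR-24 and miR-27 miRNAs are made from 2 clusters of hairpins, and every assay whose miRNA number is exactly 23, 24 or 27 was taken, with any letter, arm or star. That gave 9 of the 619 miRNA assays measured by TaqMan OpenArray, a plate of qPCR reactions each read as a threshold cycle (Ct). The Ct falls as the amount of miRNA grows, by 1 cycle for about each doubling. Of the 9 assays, 5 had a Ct below 28 in all 12 samples, among 335 assays of the whole plate that did: miR-23b, miR-27a, miR-27a*, miR-27b and miR-27b*. The assays for miR-24-1* and miR-24-2* had a Ct in 11 samples, and those for miR-23a and miR-24 in 7.

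The RNA came from the ipsilateral hippocampus of male mice on a C57Bl/6 background, either wild-type (wt) or P2rx7-/-, in 4 groups of 3 samples, and each sample combined hippocampi of 2 mice. Control mice of both genotypes (wt control, P2rx7-/- control) had vehicle with 0 μg kainic acid (KA) injected into the amygdala. Post-SE mice of both genotypes (wt post-SE, P2rx7-/- post-SE) had 0.3 μg KA, an agonist of kainate-type glutamate receptors that triggers status epilepticus (SE), a seizure that does not end by itself. All 4 groups received 6 mg/kg lorazepam, an anticonvulsant, and were taken 8 h after the injection. The labels give an age of 8 weeks, while the methods give 8 to 12 weeks. P2rx7-/- mice lack exon 2 of the gene for the ATP-gated P2X7 receptor in every cell and from conception on, so an effect of the receptor after SE and one during development cannot be told apart. The miRNA assays do not measure P2rx7 mRNA, so the genotype labels were not checked with these data. By Western blot, the authors report no P2X7 receptor signal in the hippocampus of P2rx7-/- mice after SE. Variation between the 2 mice of a sample is not visible, and RNA degradation was not assessed by the authors.

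MiRNAs are short RNAs that guide an Argonaute protein to messenger RNAs and lower the output of those messages, mainly by pairing through the seed, the bases near their 5′ end. Each hairpin can yield a miRNA from both of its arms: the guide strand, which is usually kept by Argonaute, and the passenger strand, marked here with a star, which is usually degraded. Clustered hairpins are cut from a shared primary transcript, although each mature strand is afterwards processed and degraded at its own rate. In the brain and elsewhere, miR-23, miR-24 and miR-27 are widely expressed in neurons, glia, endothelium and immune cells, and have been studied in cell death, vessel growth and inflammation.

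The mature sequences, taken from RefSeq (build GRCm38.p6) by name and written 5′ to 3′ with the seed (bases 2 to 8) in capitals, show which members share a seed. Of 11 mature names in both clusters, 10 were found, and mmu-miR-23b-3p was not among them. Guide strands of miR-27a and miR-27b are shown with the guides of miR-24 and miR-23a and with miR-128, and passenger strands are shown because the results turn on them.
miR-27a (3′ arm, guide): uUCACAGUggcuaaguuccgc
miR-27b (3′ arm, guide): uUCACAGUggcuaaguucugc
miR-128 (3′ arm, guide): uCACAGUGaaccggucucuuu
miR-23a (3′ arm, guide): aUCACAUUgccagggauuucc
miR-24 (3′ arm, guide): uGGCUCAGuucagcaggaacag
miR-27a* (5′ arm, passenger): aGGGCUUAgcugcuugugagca
miR-27b* (5′ arm, passenger): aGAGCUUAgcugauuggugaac
miR-24-2* (5′ arm, passenger): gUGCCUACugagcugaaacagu
miR-24-1* (5′ arm, passenger): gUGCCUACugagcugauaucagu

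Both miR-27 guides carry the same seed and differ by 1 base over 21, C19U from miR-27a to miR-27b, with positions counted from 1 at the 5′ end. Their passenger strands are less alike, with 8 differences over 22 bases, of which 1 lies in the seed (G3A from miR-27a* to miR-27b*). The miR-24 passengers share a seed and are 22 (miR-24-2*) and 23 bases long (miR-24-1*). Compared base by base from the 5′ end without gaps, they are the same up to U17A (from miR-24-1* to miR-24-2*), so they differ only toward the 3′ end. A stretch of 8 bases is common to miR-27a (bases 2 to 9) and the brain-enriched miR-128 (bases 1 to 8), so their seeds are offset by 1 base. Assay names on the plate carry human, mouse or rat prefixes, and the sequences that the probes detect are not given in the sources used here.

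On chromosome 8, plus strand, of GRCm38.p6 lie Mir23a (chr8:84208518-84208592), Mir27a (chr8:84208672-84208758) and Mir24-2 (chr8:84208815-84208921), a span of 404 bases. No annotated gene contains these hairpins, and the nearest coding gene, Zswim4, is 2021 bases from Mir24-2. The second cluster is on chromosome 13, plus strand, with Mir23b (chr13:63300484-63300557), Mir27b (chr13:63300712-63300784) and Mir24-1 (chr13:63301208-63301275) over 792 bases, all inside the coding gene Aopep, and Mir24-1 also overlaps the annotated hairpin Mir3074-1. Both miR-24 hairpins give the guide assayed as miR-24, so only the miR-24 passengers report on one cluster each.

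For every sample the mean Ct of the 335 assays was taken and the Ct of each member subtracted from it, giving a normalized level on a log2 scale on which 0 is the mean of the sample. The mean Ct ran from 18.25 in wt control replicate 3 to 19.27 in wt post-SE replicate 1. Each assay was read in 1 well, and the median SD between the wells of a sample was 0.281 cycles for snoRNA135 and 0.211 for snoRNA202, the controls repeated on the plate. It was 3.63 and 3.74 cycles in wt control replicate 1, the highest of the 12 samples for both controls, where the mean Ct of snoRNA202 was 11.62 and the median 10.41. For snoRNA202, 157 wells had a Ct, with 3 of 16 in wt control replicate 3. Against this, the SD of the normalized level within groups was 0.246 for miR-27b* (rank 9 from the smallest among 335 assays), 0.334 for miR-27b (rank 31), 0.36 for miR-27a* (rank 43), 0.535 for miR-23b (rank 135) and 2.86 for miR-27a (rank 324), with a median of 0.636 over all assays. So the miR-27 passengers and miR-27b varied less between samples of a group than most miRNAs, and miR-27a more than nearly all. One sample stood apart: wt control replicate 1 had a Ct for 470 miRNA assays, the fewest of the 12 samples (up to 538), and the lowest sample weight estimated by limma (0.167, against 0.372 to 2.24 in the others).

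The tissue label was compared with miRNAs known from neurons and other cells of the hippocampus. All 5 neuronal miRNAs looked for (miR-9, miR-124, miR-128, miR-137 and miR-138) gave a Ct, on 8 assays of which 3 had one in every sample, and miR-128a was the most abundant of these 3. Their summed level, as a multiple of the sample mean, was lowest in wt control replicate 1 (24.5) and ran from 41.1 to 80.1 in the other 11 samples. Oligodendrocyte, vascular and blood miRNAs were also detected, and their values stand with the results below. In tissue RNA, fewer cells of a type and less RNA per cell cannot be told apart.

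In the control comparison, which asks what the loss of the receptor does without seizures, 2 of the 5 members with a Ct in all samples passed the fold change rule in P2rx7-/- control relative to wt control samples. By this rule a miRNA is up-regulated when the mean of its 3 fold changes (FC) is above 1.5 and down-regulated below 0.6. The members called were miR-27a (up) and miR-23b (down), against 36.7% of the 335 assays, of which 21.2% were called up and 15.5% down. For miR-23b and miR-27b* the groups did not overlap, 2 of 5 members where 14% of all assays did so. After SE in wt mice, the rule called 2 of 5, miR-27a and miR-27a* (both up), against a background of 35.8% (23.3% up and 12.5% down), and 2 of 5 did not overlap, miR-27a* and miR-27b*, against 11%. P2rx7-/- post-SE samples relative to wt control samples gave the calls miR-27a and miR-27a*, 2 of 5 against 33.7% (20.6% up and 13.1% down), with 1 of 5 not overlapping, miR-27a*, against 10.1%. Relative to wt post-SE samples, the P2rx7-/- post-SE samples gave 2 of 5 calls, miR-27a and miR-27b* (both up), where 21.5% of all assays were called (17% up and 4.48% down), and 1 of 5 did not overlap, miR-27b*, against 5.67%. With 5 members, these counts lie within 2 assays of the background shares, and nothing particular to the clusters is read from them. The 3 comparisons against wt control share those samples. Without wt control replicate 1 the background shares in them were 25.7%, 23% and 20.3% (21, 20 and 13 assays down against 52, 42 and 44 with it), and 1, 1 and 2 members were called.

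The limma fit over all 12 samples, adjusted over the 335 assays (Benjamini-Hochberg), called 0 assays in each of its 8 contrasts. At an unadjusted p below 0.05 it gave 0 of the 5 members for P2rx7-/- against wt control samples (20 assays, 5.97% of all), 2 for wt post-SE against wt control (13 assays, 3.88%) and 1 for P2rx7-/- post-SE against wt control (12 assays, 3.58%). For P2rx7-/- post-SE it gave 1 member against wt post-SE (4 assays, 1.19%) and 1 against P2rx7-/- control samples (10 assays, 2.99%). The interaction of genotype and treatment, that is, the difference between the responses of the genotypes, gave 1 member (8 assays, 2.39%). For SE averaged over genotypes it was 1 member (11 assays, 3.28%), and for genotype averaged over treatments 0 (16 assays, 4.78%). No member therefore passed an adjusted test, and the values that follow are given as measured, with their spread.

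The passenger strand of the miR-27a hairpin, miR-27a*, had higher levels after SE in both genotypes. In wt mice its normalized level was −3.72, −3.68 and −2.83 without and −2.61, −2.11 and −2.71 after SE, and in P2rx7-/- mice −3.60, −2.90 and −3.40 without and −2.48, −2.61 and −2.26 after SE. All 6 post-SE samples lay above all 6 control samples, the closest being wt post-SE replicate 3 and wt control replicate 3. Group means ± SD in the same order were −3.41 ± 0.503 and −2.48 ± 0.32 in wt, and −3.30 ± 0.362 and −2.45 ± 0.179 in P2rx7-/- mice (n = 3 each), so that the genotypes differed by less than their spread under either treatment. Relative to the average wt control sample, the mean FC was 1.94 ± 0.452 after SE in wt and 1.96 ± 0.246 after SE in P2rx7-/- mice (SD, n = 3), and 1.1 ± 0.287 in P2rx7-/- control samples.

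Averaged over genotypes, the log2 difference of miR-27a* between post-SE and control samples was 0.89 (1.86-fold), higher in 6 of 6 post-SE samples than in any control. The two-sided exact permutation test, with treatment labels exchanged within each genotype, gave p = 0.005, the smallest that its 400 arrangements allow, and an adjusted p of 0.419 over 335 assays. Among all assays 4 (1.19%) reached this p, and 0 passed after adjustment, with 20 at an unadjusted p below 0.05. In limma the same difference had a standard error of 0.24, a 95% confidence interval of 0.36 to 1.43 and an adjusted p of 0.334. By genotype, limma gave 0.93 (standard error 0.34, adjusted p = 0.664) in wt and 0.85 (standard error 0.34, adjusted p = 0.998) in P2rx7-/- mice, and their difference was −0.08, with an interval of −1.16 to 0.99 that holds large differences in both directions. With the mean Ct of snoRNA202 as the normalizer, which moved the median of all assays by −0.72 and −0.54 in the comparisons of wt and P2rx7-/- post-SE with wt control samples, both calls ended, at mean FCs of 1.18 and 1.37. With the median of its wells, an alternative chosen after seeing the data, the shifts were −0.39 and −0.16 and the mean FCs 1.49 and 1.78, which ended the call in wt mice only. Mean and median cover only the snoRNA202 wells with a Ct, 3 of 16 in wt control replicate 3.

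**Figure D1:**
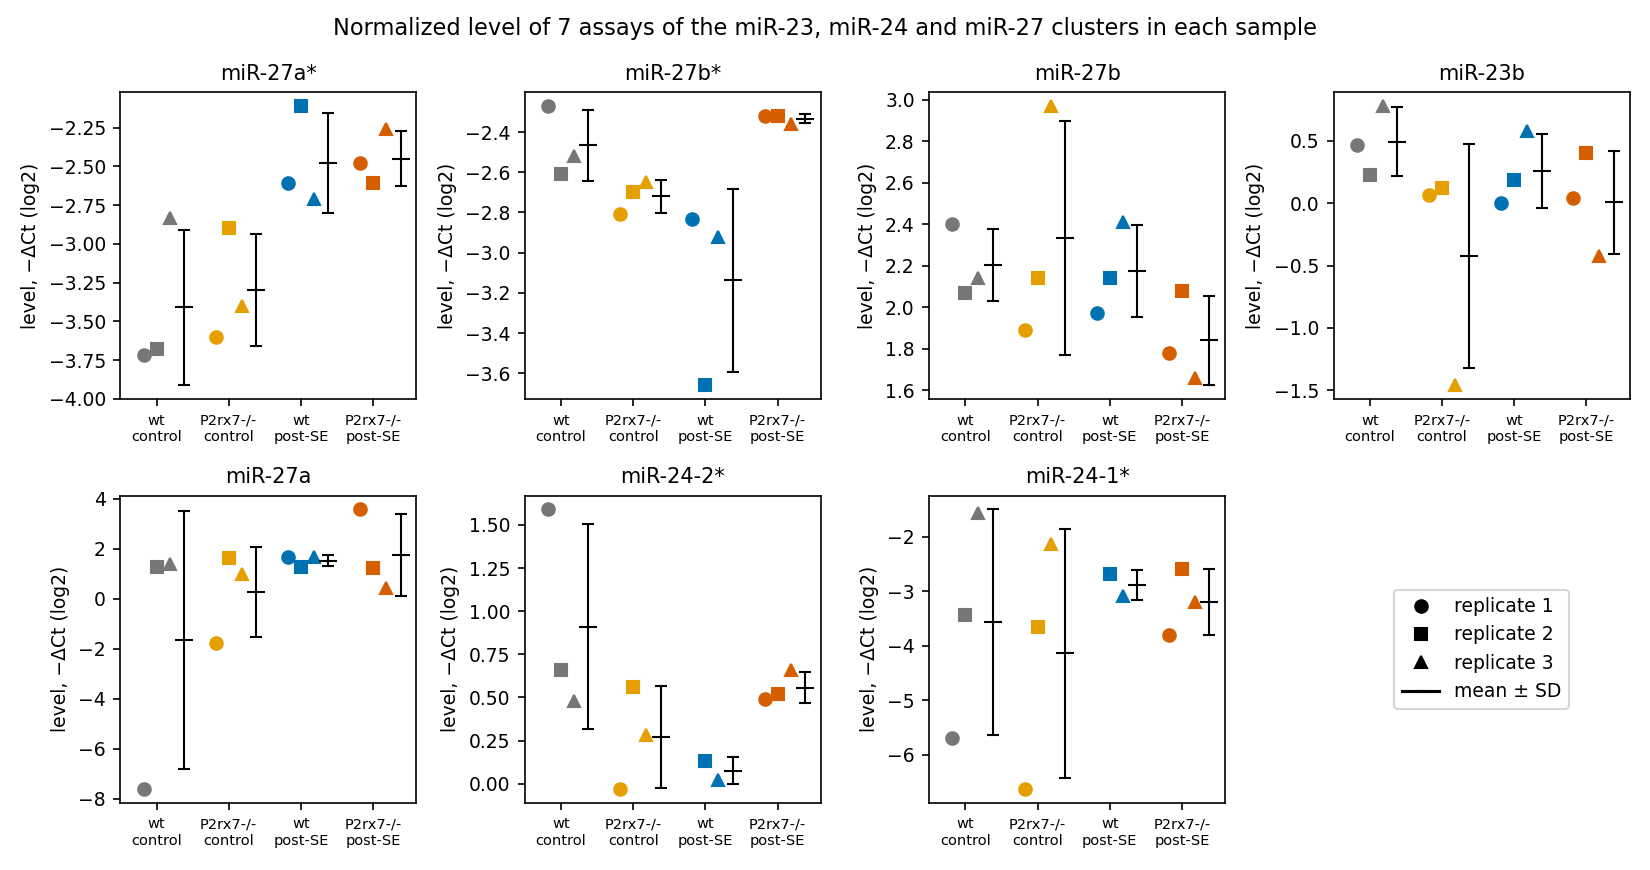
Normalized level (log2, mean Ct of 335 assays minus the Ct of the member) of each sample, by group, for the members with a Ct in at least 11 samples. Points are samples, and bars beside them are the group mean ± SD. The post-SE samples of miR-27a* sit between −2.71 and −2.11, all above the control samples.

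Complete separation of the 6 post-SE from the 6 control samples was seen for 4 of the 335 assays (1.19%): miR-27a*, miR-335*, miR-21* and miR-685, all higher post-SE. Across the 12 samples, the assays most like miR-27a* were miR-21* (Spearman correlation 0.90, Pearson 0.92), the passenger strand of the miR-21 hairpin, miR-150 (0.83 and 0.58) and miR-335* (0.74 and 0.66). These correlations include the difference between treatments and describe likeness only. Relative to wt control samples, the mean FC of miR-21* after SE was 5.28 in wt and 5.27 in P2rx7-/- mice, with limma differences of 2.39 in both (adjusted p = 0.316 and 0.314). The guide miR-21 had mean FCs below 1, at 0.62 in wt and 0.443 in P2rx7-/- mice, of which the second was called down, and its limma differences were −0.74 and −1.19 (adjusted p = 0.712 for both). It was also called down in P2rx7-/- control relative to wt control samples, at a mean FC of 0.513 (limma −1.05, adjusted p = 0.637), where miR-21* had 1.86 (0.44, adjusted p = 0.848). Between the post-SE groups the mean FCs were 0.741 for miR-21 and 1.01 for miR-21*, neither of them called.

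The passenger strand of the paralogous hairpin, miR-27b*, was lower after SE in wt mice and not lower in P2rx7-/- mice. Wt mice had a level of −2.27, −2.61 and −2.52 in controls and of −2.83, −3.66 and −2.92 after SE, while P2rx7-/- mice had −2.81, −2.70 and −2.65 in controls and −2.32, −2.32 and −2.36 after SE. The wt post-SE samples lay below all other 9 samples, though close to P2rx7-/- control replicate 1, and the P2rx7-/- post-SE samples were nearly equal to each other. Ordered by mean ± SD, wt post-SE (−3.14 ± 0.452) was followed by P2rx7-/- control (−2.72 ± 0.0809), wt control (−2.47 ± 0.175) and P2rx7-/- post-SE (−2.33 ± 0.0227), and the last of these lay among the wt control samples. Each value came from 1 well, and the SD of 0.0227 is below the median SD between control wells (0.211 and 0.281 cycles). That small SD is therefore not read as a measure of precision. The mean FC was 0.648 ± 0.183 in wt post-SE relative to wt control samples, above the threshold of the rule, and 1.75 ± 0.0274 in P2rx7-/- post-SE relative to wt post-SE samples, which was called.

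The log2 difference of miR-27b* between post-SE and control samples was −0.67 in wt mice (standard error 0.28, interval −1.30 to −0.04, limma adjusted p = 0.664) and 0.39 in P2rx7-/- mice (interval −0.24 to 1.02, adjusted p = 0.998). The difference between these responses was 1.06 with a 95% interval of 0.17 to 1.95 (limma adjusted p = 0.851). Between the post-SE groups the difference was 0.80 (interval 0.17 to 1.43, limma adjusted p = 0.999). A two-sided exact permutation test of 3 samples against 3 gave p = 0.1 there, the smallest it can give. Without wt post-SE replicate 2, the difference in wt mice was −0.41, and the FC of 1.75 was 1.46, which ended the call. Without wt post-SE replicate 1 the mean FC in wt mice was 0.583, past the threshold. Scaled to the mean Ct of snoRNA202, the FC in wt post-SE samples was 0.398 and the difference between responses 1.89, where the median of all assays moved by −0.72 and 0.83, and with the median of its wells these were 0.497 and 1.53, with shifts of −0.39 and 0.48. In wt mice every post-SE sample lay below the mean of the controls, and in P2rx7-/- mice above it. This was so for 1 of the 5 members, and for 22 of the 335 assays (6.57%), or 31 (9.25%) when the opposite arrangement is counted too.

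**Figure D2:**
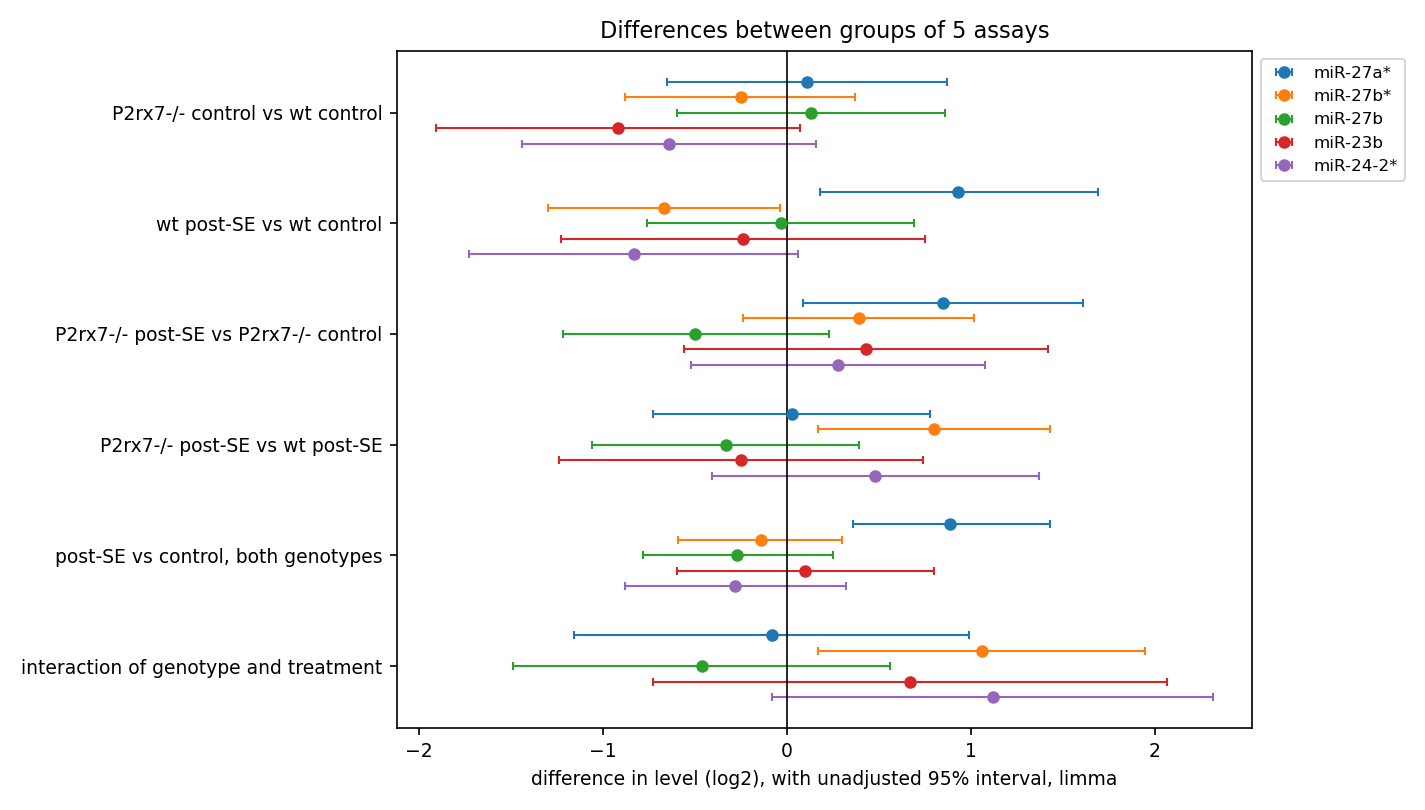
Log2 differences between groups from limma for miR-27a*, miR-27b*, miR-27b, miR-23b and miR-24-2*, with bars for unadjusted 95% confidence intervals, in 6 contrasts (4 between groups of samples, SE averaged over genotypes, and the interaction). For SE the point of miR-27a* sits at 0.93 in wt and 0.85 in P2rx7-/- mice, while that of miR-27b* sits at −0.67 and 0.39.

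The miRNAs most like miR-27b* over the 12 samples were the passenger strands miR-15a* (Spearman 0.78, Pearson 0.50), miR-191* (0.77 and 0.53) and miR-30d* (0.73 and 0.53). Between miR-27a* and miR-27b* the Spearman correlation was −0.21 (Pearson −0.30, n = 12).

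The miR-27b guide, the most abundant member with a Ct in all samples, differed little between groups. The level in wt mice was 2.40, 2.07 and 2.14 in controls and 1.97, 2.14 and 2.41 after SE, and in P2rx7-/- mice it was 1.89, 2.14 and 2.97 in controls and 1.78, 2.08 and 1.66 after SE. All groups overlapped, and P2rx7-/- control replicate 3 was the highest sample. Relative to wt control samples, mean FCs after SE were 0.984 ± 0.154 in wt and 0.782 ± 0.121 in P2rx7-/- mice, and 1.16 ± 0.48 in P2rx7-/- controls (SD, n = 3). For wt mice the limma difference after SE was −0.03 with an interval of −0.76 to 0.69 (adjusted p = 0.992), and for P2rx7-/- mice −0.50 with −1.22 to 0.23 (adjusted p = 0.998), or −0.18 without P2rx7-/- control replicate 3. The guide was most like miR-337-3p (Spearman 0.87, Pearson 0.94), miR-26b (0.77 and 0.51) and miR-184 (0.76 and 0.73).

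The miR-27a guide was called up-regulated in all 4 comparisons, with a spread wide enough for single samples to move its values several fold. For wt mice its level was −7.61, 1.26 and 1.39 in controls and 1.67, 1.26 and 1.65 after SE, and for P2rx7-/- mice −1.79, 1.61 and 0.99 in controls and 3.57, 1.22 and 0.41 after SE. Wt control replicate 1 (Ct 26.66) lay far below and P2rx7-/- post-SE replicate 1 (Ct 14.92) above the rest, P2rx7-/- control replicate 1 was also low, and the remaining samples of all groups overlapped. Mean FCs relative to wt control samples were 5.59 ± 4.38 in P2rx7-/- controls, 9.14 ± 1.39 after SE in wt and 16.4 ± 18.4 after SE in P2rx7-/- mice (SD, n = 3). Relative to wt post-SE samples the last group had a mean FC of 1.8 ± 2.03. The reference itself was uneven, with FCs of 0.0161, 7.53 and 8.24 in the 3 wt control samples.

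Without wt control replicate 1 the first 3 of these mean FCs of miR-27a became 0.71, 1.16 and 2.08. They were 15.3, 25.1 and 44.9 without wt control replicate 2 and 16.1, 26.3 and 46.9 without wt control replicate 3. In P2rx7-/- control samples it was 3.59 without replicate 2. Without P2rx7-/- post-SE replicate 1, the mean FC of that group was 5.78 relative to wt control and 0.637 relative to wt post-SE samples, and the geometric mean ended the latter call at 1.16. The limma difference after SE was 3.18 (standard error 2.08, adjusted p = 0.664) in wt and 1.47 (standard error 2.08, adjusted p = 0.998) in P2rx7-/- mice. It was 0.20 in wt mice without wt control replicate 1, and in P2rx7-/- mice 0.44 without P2rx7-/- control replicate 1 and 0.55 without P2rx7-/- post-SE replicate 1. Most like miR-27a were miR-30a-5p (Spearman 0.88, Pearson 0.95), miR-219-2-3p (0.84 and 0.97) and miR-15a (0.76 and 0.41).

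Of the miR-23 guides, miR-23b had lower levels in P2rx7-/- control than in wt control samples. Controls had a level of 0.47, 0.23 and 0.78 in wt and of 0.07, 0.12 and −1.46 in P2rx7-/- mice, and post-SE samples one of 0.00, 0.19 and 0.58 in wt and of 0.04, 0.40 and −0.42 in P2rx7-/- mice. The control groups did not overlap, P2rx7-/- control replicate 3 was the lowest sample, and the post-SE groups overlapped with each other and with both control groups. The mean FC was 0.591 ± 0.289 (SD, n = 3) in P2rx7-/- control relative to wt control samples, and against the same reference 0.861 ± 0.182 after SE in wt and 0.732 ± 0.204 after SE in P2rx7-/- mice. In limma the control difference was −0.92 (standard error 0.44, interval −1.91 to 0.07, adjusted p = 0.615), and the genotype effect averaged over treatments was −0.59 (two-sided exact permutation test, p = 0.06, adjusted p = 0.718). Without P2rx7-/- control replicate 3 these were −0.40 and −0.33, and the genotype effect was −0.07 without all samples numbered 3. The call ended at a mean FC of 0.758 without P2rx7-/- control replicate 3 and 0.653 without wt control replicate 3, and at 0.61 and 0.621 when the median Ct or the mean of snoRNA135 was the normalizer, 0.808 with the median of the snoRNA135 wells and 0.605 with a Ct limit of 26.

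The assays most like miR-23b were miR-148a (Spearman 0.94, Pearson 0.96), miR-19a (0.91 and 0.82) and miR-369-3p (0.90 and 0.94). With miR-27b, from the same cluster, the Spearman correlation was 0.39 and the Pearson correlation −0.37 (n = 12), a pair of opposite signs.

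For miR-23a a Ct was present in 7 samples: 17.15 and 16.59 in wt control replicates 2 and 3, 15.8 and 13.26 in P2rx7-/- control replicates 2 and 3, 13.17 in wt post-SE replicate 3, and 15.33 and 17.02 in P2rx7-/- post-SE replicates 2 and 3. The Ct was empty in replicate 1 of every group and in wt post-SE replicate 2. Of the 35 assays with a mean Ct from 15 to 16, 13.3% of all values were empty, so that this is more than is usual at such a level. An empty Ct in all 4 samples numbered 1 was found for 36 assays (43 for number 2 and 59 for number 3), but only 4 of the 36 had a Ct in at least 6 of the other samples, miR-23a among them, and 0 of the 43 and 0 of the 59 did. This limit of 6 was chosen after the values were seen. No test was made for miR-23a, and its empty values are not read as low levels.

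The miR-24 guide, made from both clusters, also had a Ct in 7 samples: 10.07 in wt control replicate 2, 10.53, 10.41 and 11.88 in the P2rx7-/- control samples, 10.74 in wt post-SE replicate 1, and 10.41 and 10.39 in P2rx7-/- post-SE replicates 2 and 3. These are among the lowest Ct values on the plate, where the lowest of the miRNA assays in a sample was 10.1 to 10.4, and belong to an abundant miRNA. All 14 assays with a mean Ct from 10 to 11 had empty values (67.9% of them), whereas from 11 to 12 the share was 14.7%. Whether an empty value at this end stands for more or less miRNA was not tested, and no comparison was made for miR-24. In the deposited table of fold changes such empty values stand as numbers: for miR-23a, 0.731 to 1.07 in samples with no Ct and 5.79e-06 to 0.000112 in samples with one.

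**Figure D3:**
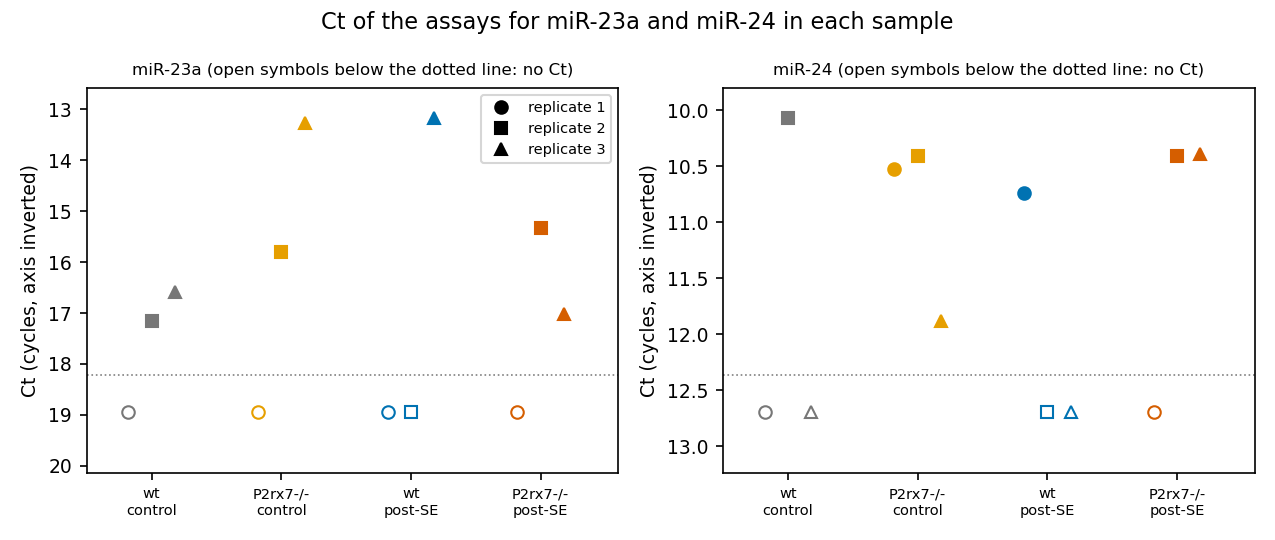
Ct (cycles) of miR-23a and miR-24 by sample and group, with the axis turned so that more miRNA is higher. Filled points are samples with a Ct, and open points below the dotted line are samples without one, placed there without a value. MiR-24 has a Ct of 10.07 to 11.88 in 7 samples, and miR-23a of 13.17 to 17.15 in 7.

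Among the miR-24 passengers, miR-24-2*, from the miR-27a cluster, had a level of 1.59, 0.66 and 0.48 in the controls of wt mice and 0.13 and 0.02 in their post-SE replicates 2 and 3, against −0.03, 0.56 and 0.28 in controls and 0.49, 0.52 and 0.66 after SE in P2rx7-/- mice. Both wt post-SE samples lay below all wt control samples, wt control replicate 1 was the highest, and the P2rx7-/- groups overlapped. In limma, fitted over 478 assays with a Ct in at least 2 samples of each group and without the empty sample, the difference after SE was −0.83 in wt (standard error 0.39, adjusted p = 0.792) and 0.28 in P2rx7-/- mice (standard error 0.35, adjusted p = 0.998). The difference between the responses was 1.12, with an interval of −0.08 to 2.32 (adjusted p = 0.916). It was 0.66 when all samples numbered 1 were left out. The difference in wt mice was −0.50 without wt control replicate 1, and that in P2rx7-/- mice 0.13 without P2rx7-/- control replicate 1 and 0.43 without P2rx7-/- control replicate 2. Opposite sides of the control mean, with wt mice below and P2rx7-/- mice above, were thus found for 2 of the 7 members fitted here (miR-27b* and miR-24-2*) and for 26 of the 478 assays (5.44%), or 39 (8.16%) in either arrangement.

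For miR-24-1*, from the miR-27b cluster, the level in wt mice was −5.69, −3.43 and −1.57 in controls and −2.69 and −3.08 in post-SE replicates 2 and 3, and in P2rx7-/- mice −6.62, −3.65 and −2.13 in controls and −3.80, −2.60 and −3.20 after SE. Control samples of both genotypes spanned over 4 log2 units with the post-SE samples inside that span. Its limma differences after SE were 0.68 in wt (standard error 1.39, adjusted p = 0.954) and 0.93 in P2rx7-/- mice (standard error 1.24, adjusted p = 0.998). In the controls of both genotypes replicate 1 was the lowest sample and replicate 3 the highest, and with the replicate number as a block the differences were −0.19 in wt (standard error 0.97, adjusted p = 0.991) and 0.93 in P2rx7-/- mice (standard error 0.81, adjusted p = 0.999). With replicate 1 of the genotype's own controls left out they turned to −0.39 (wt) and −0.31 (P2rx7-/-), and with replicate 3 of those controls left out they were 1.68 and 1.94. Both miR-24 passengers lacked a Ct in wt post-SE replicate 1, where the deposited table of fold changes holds 28824980 for miR-24-1* and 185550 for miR-24-2*.

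Differences between members within a sample need no normalizer, and 7 pairs were compared with 14 unadjusted two-sided exact permutation tests, for treatment and for genotype. The difference is given as the Ct of the second member minus that of the first, so that higher means more of the first relative to the second. The paralogous passengers, miR-27a* over miR-27b*, stood in wt mice at −1.46, −1.07 and −0.31 in controls and 0.22, 1.54 and 0.22 after SE, and in P2rx7-/- mice at −0.79, −0.19 and −0.76 in controls and −0.16, −0.29 and 0.10 after SE. The wt post-SE samples lay above all others, while the P2rx7-/- post-SE samples lay at the upper end of their own controls, with 1 of 3 inside their range. Averaged over genotypes the ratio was 2.05-fold higher post-SE (log2 difference 1.03, exact permutation test, p = 0.01), from 1.61 in wt and 0.46 in P2rx7-/- mice.

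Within the miR-27a cluster, miR-27a* over miR-24-2* stood in wt mice at −5.31, −4.34 and −3.31 in controls and −2.24 and −2.73 after SE, and in P2rx7-/- mice at −3.57, −3.46 and −3.69 in controls and −2.97, −3.13 and −2.92 after SE. All 5 post-SE samples with both values lay above all 6 control samples. The ratio was 2.3-fold higher post-SE (log2 difference 1.20, n = 11, exact permutation test, p = 0.015), from 1.84 in wt and 0.57 in P2rx7-/- mice. Neither test was adjusted for the 14 made. Both pairs have miR-27a* as the first member, so they are not separate from its own result. Their second members had limma differences after SE of −0.67 (miR-27b*) and −0.83 (miR-24-2*) in wt mice. In P2rx7-/- mice these were 0.39 and 0.28. With the replicate number as a block the pair differences were 1.03 and 0.88 (exact permutation test, p = 0.0625 for each). The smallest p possible there is 0.0312 for the first, higher post-SE in 5 of 6 pairs of samples with the same number, and 0.0625 for the second, higher in 5 of 5. When all samples of any 1 number were left out, the differences were 0.92 to 1.20 and 0.94 to 1.52, in tests that cannot give a p below 0.0556.

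On the strands of a single hairpin, miR-27b* over miR-27b stood in wt mice at −4.67, −4.68 and −4.66 in controls and −4.80, −5.80 and −5.33 after SE, and in P2rx7-/- mice at −4.70, −4.85 and −5.62 in controls and −4.10, −4.40 and −4.02 after SE. The P2rx7-/- post-SE samples lay above all other 9, and the wt post-SE samples lay below all wt control samples. The responses to SE had opposite signs, −0.64 in wt and 0.88 in P2rx7-/- mice, and their average of 0.12 did not pass the test (exact permutation test, p = 0.715). For miR-27a* over miR-27a the average was −1.43 (exact permutation test, p = 0.445), with values from −6.05 in P2rx7-/- post-SE replicate 1 to 3.89 in wt control replicate 1, the only sample in which the passenger had the lower Ct.

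The remaining pairs did not pass for treatment: miR-27a over miR-27b (2.59, p = 0.105), miR-27b* over miR-24-1* (−1.02, p = 0.36) and miR-23b over miR-27b (0.36, p = 0.685), all by exact permutation. The treatment difference of miR-27a over miR-27b was 3.37 (exact permutation test, p = 0.045) without wt control replicate 3, 1.05 (p = 0.195) without wt control replicate 1, and 0.09 (p = 0.944) without all samples numbered 1. None of the 7 pairs passed for genotype, with p from 0.3 to 0.77. The ratio of miR-23b to miR-27b was even in most samples, between −2.08 and −1.36 in 11 of them, and P2rx7-/- control replicate 3 lay at −4.44.

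**Figure D4:**
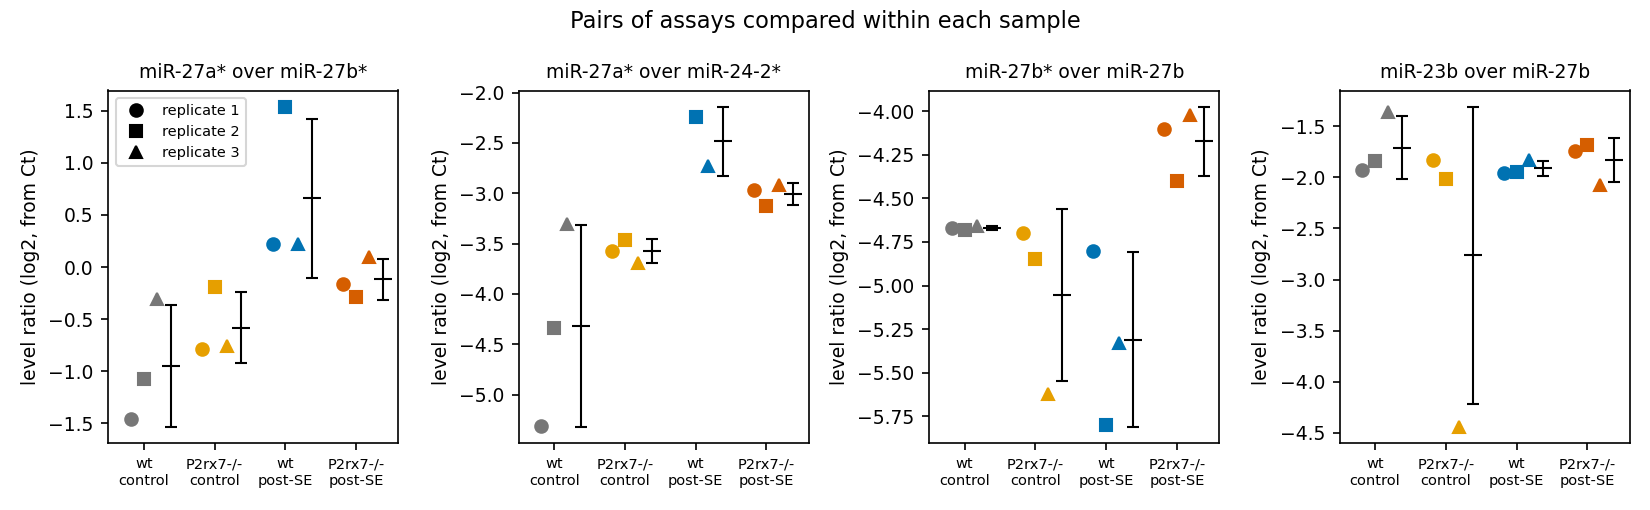
Ct difference within each sample (cycles, that is log2, second member minus first, higher meaning more of the first) for 4 of the 7 pairs, by group. Points are samples, and bars beside them are the group mean ± SD. For miR-27a* over miR-24-2* the 5 post-SE samples sit between −3.13 and −2.24, above the control samples.

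The seed relative of miR-27, miR-128a, a neuronal miRNA, was called in none of the 4 comparisons, with mean FCs relative to wt control samples of 1.29 in P2rx7-/- controls, 1.04 after SE in wt and 1.44 after SE in P2rx7-/- mice, and of 1.39 between the post-SE groups. Its limma differences in this order were 0.36, 0.05, 0.45 and 0.40, each with a standard error of 0.34.

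Markers of cell types gave the following calls beside those of the members, with 0 assays of any list passing the adjusted limma test. Of the 3 neuronal assays with a Ct in all samples, 1 was called up in each comparison with wt control samples (miR-137) and 0 relative to wt post-SE samples. Of 4 oligodendrocyte assays, most abundant miR-338-5P, 2 were called up and 2 down in P2rx7-/- controls, 2 up and 0 down after SE in wt and 2 up and 1 down after SE in P2rx7-/- mice, all relative to wt control samples, and 1 up and 0 down between the post-SE groups. The assays called up relative to wt control samples were miR-219 and miR-219-2-3p, and those called down were for miR-338. Of these, miR-219-2-3p is among the assays most like miR-27a. The summed level of the oligodendrocyte assays was 19.4 in P2rx7-/- post-SE replicate 1, the sample with the highest miR-27a. It was 3.63 to 9.18 in the others, with 9.18 in wt control replicate 1, the sample with the lowest miR-27a. Of that 9.18, 5.46 came from miR-338-5P, against 1.9 of the 19.4. The mean normalized level of the 4 assays was instead lowest in wt control replicate 1 (−0.33) and highest in P2rx7-/- post-SE replicate 1 (1.40). The part of the oligodendrocyte assays in the values of miR-27a was not tested. For endothelium and mural cells, 1 of 6 assays had a Ct in all samples, miR-145, called up in each comparison with wt control samples, with a level of 3.83 in wt control replicate 1, 245 in wt post-SE replicate 1 and 24 to 62.5 in the others. The miR-145 level was thus low together with miR-27a in wt control replicate 1, the low sample of both. In P2rx7-/- control replicate 1, where miR-27a was also low (−1.79), the level of miR-145 was 44.8. Between the post-SE groups, where miR-27a was called up, miR-145 had a mean FC of 0.677. The part of miR-145 in the calls of miR-27a was not tested.

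Blood miRNAs (4 of 5 assays with a Ct in all samples, most abundant miR-223) gave, relative to wt control samples, 0 calls in P2rx7-/- controls, 2 down after SE in wt and 0 after SE in P2rx7-/- mice, and 3 up in P2rx7-/- mice between the post-SE groups. Those called up were both assays for miR-223 and the assay for miR-451. Both miR-223 assays also count among the inflammation calls of that comparison. The summed level of the blood assays after SE was 31.9, 53.2 and 26.6 in wt and 56.6, 40.4 and 101 in P2rx7-/- mice, so the groups overlapped, and in wt control samples it was 54.8, 45.9 and 107. The median limma difference of the blood assays was −0.86 in wt post-SE relative to wt control samples and 0.64 between the post-SE groups, where it was −0.09 and −0.01 over all assays. The differences of miR-27b* had the same signs there (−0.67 and 0.80). In P2rx7-/- control and P2rx7-/- post-SE relative to wt control samples the signs were opposite, with blood medians of 0.08 and −0.35 against −0.25 and 0.13 for miR-27b*, and the part of blood in the values of miR-27b* was not tested. Inflammation miRNAs (miR-21, miR-146, miR-155 and miR-223, 8 of 9 assays) gave 2 up and 1 down, 3 up and 0 down, and 4 up and 1 down relative to wt control samples in the same order, and 3 up and 0 down relative to wt post-SE samples. Their summed level ran from 76.8 in wt post-SE replicate 1 to 194 in P2rx7-/- post-SE replicate 3. Of the activity-regulated miRNAs (miR-132, miR-134 and miR-212), 2 of 3 assays had a Ct in all samples, and 1 was called, miR-212 in wt post-SE relative to wt control samples, with a mean FC of 1.64 and a limma difference of 0.69 (adjusted p = 0.664).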

How the data were processed

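The authors measured 12 RNA samples by TaqMan OpenArray and deposited 2 tables: Ct values, not normalized and with a missing Ct left empty, and fold changes (a ratio to wt control replicate 1, scaled to the mean Ct of the sample). The Ct software is not given in the sources used here. All per-sample columns were matched to labels by name. From the Ct values, assays with a Ct below 28 in all samples were scaled to their mean Ct, and FCs were computed as 2 to the power of −ΔΔCt relative to the average ΔCt of the reference group. The deposited fold changes served only as an alternative normalizer. Normalized levels were fitted with limma 3.58.1 (R 4.3.3) with 1 coefficient per group and Benjamini-Hochberg adjustment over all assays fitted. Exact permutation tests exchanged labels within strata (scipy 1.17.1 and pandas 2.3.3 with numpy 2.4.6 under Python 3.11.15, and figures with matplotlib 3.10.9). The computations were tested on simulated data. Alternatives comprised 5 normalizers, and 2 more chosen after seeing the data (the median Ct of the snoRNA202 or snoRNA135 wells), Ct limits, averaging, weights, robust fitting and left-out samples. Named were all members, the 3 assays most like each by Spearman correlation, miR-128 assays, and lists for neurons, oligodendrocytes, endothelium and mural cells, blood, inflammation and activity-regulated miRNAs. Members and lists were chosen with earlier results of these data known. The labels do not say that samples of a group are independent in every step. All tests took them as independent, and their p-values hold only as far as that is so.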

Additional observations from a re-analysis of the deposited data

Results flagged for a closer look

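Opposite responses to SE in the 2 genotypes were seen for 2 of the 7 members fitted and 2 of the 7 pairs compared: every wt post-SE sample lay below the mean of its own controls, and every P2rx7-/- post-SE sample lay above the mean of its own. Of the 335 assays 6.57% did so, and of the 478 with a Ct in at least 2 samples of each group 5.44%. These shares are for single assays, and none was computed over pairs of assays. The measures are not independent, since miR-27b* enters 2 of the 4 and miR-27b enters both pairs.

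For miR-27b* the response in P2rx7-/- mice was 1.06 higher (log2) than in wt mice, from −0.67 in wt (−0.41 without wt post-SE replicate 2) and 0.39 in P2rx7-/- mice. The limma interaction did not pass after adjustment over the 335 assays (adjusted p = 0.851).

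For miR-24-2* the difference between responses was 1.12, from −0.83 (−0.50 without wt control replicate 1) and 0.28, with 2 wt post-SE samples, and the limma interaction did not pass after adjustment over 478 assays (adjusted p = 0.916).

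For the strand ratio miR-27b* over miR-27b the difference between responses was 1.52, from −0.64 and 0.88. It ran from 1.24 (without P2rx7-/- control replicate 3) to 1.78 (without wt post-SE replicate 1) with single samples left out, and the response in wt mice was −0.39 without wt post-SE replicate 2. This difference was not tested.

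For miR-23b over miR-27b it was 1.13, from −0.20 in wt and 0.93 in P2rx7-/- mice, with P2rx7-/- control replicate 3 far below the others at −4.44. Without that sample the response in P2rx7-/- mice was 0.09 and the difference 0.29, and without wt control replicate 3 the response in wt mice was −0.03. In neither case did all post-SE samples lie on opposite sides as described. This difference was not tested.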

How the results depend on the processing

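The number of members called by the FC rule was 2 in each comparison. It was 1 in P2rx7-/- relative to wt control samples with the median Ct or the mean of snoRNA135 as normalizer. It was 3 with the mean of snoRNA202 in each comparison with wt control samples, with the mean of snoRNA135 in wt post-SE samples, and with the median of the snoRNA135 wells in P2rx7-/- controls and after SE in P2rx7-/- mice, all relative to wt control samples. With a Ct limit of 26, which removes miR-27a (wt control replicate 1 had 26.66), it was 0 in P2rx7-/- control relative to wt control samples and 1 in each other comparison. With the two-group test named in the methods as a further condition it was 1 for P2rx7-/- post-SE samples against either reference and 0 in the other comparisons. The geometric mean gave 1 between the post-SE groups. The share of all assays called moved as well: relative to wt control samples it was 53.7%, 60.6% and 49.3% with the mean of snoRNA202 (P2rx7-/- controls, after SE in wt, after SE in P2rx7-/- mice), 34.3% and 36.4% with that of snoRNA135 in the first 2, 37% with the median Ct in the first, 51.6% and 47.5% with the median of the snoRNA135 wells in the first and the last, and 32.9%, 32.3% and 32.9% with a Ct limit of 26. Between the post-SE groups it was 19.5% with that limit and 18.2% with the geometric mean. It was higher there with the means of snoRNA202 (29.9%) and snoRNA135 (35.8%), the medians of their wells (31.6% and 30.4%) and the median Ct (26.3%). With samples or replicate numbers left out it ran from 25.7% to 50.1%, 18.8% to 44.8% and 19.7% to 43.3% relative to wt control samples in the same order, and from 21.5% to 32.2% between the post-SE groups. Of single samples, only wt control replicate 1 moved it by over 1.5 times, to 23% after SE in wt and 20.3% after SE in P2rx7-/- mice. Leaving out samples gave 1 to 2, 1 to 3, 1 to 3 and 1 to 2 calls in the 4 comparisons. Limma called 0 members under every alternative run. The number of samples and the single well per assay limit the precision. Except where a setting removes samples or assays, the cause of each change was not tested.

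The response of miR-27a* to SE (wt, P2rx7-/- and averaged) and those of miR-27b* in wt mice, between the post-SE groups and between the responses of the genotypes kept their direction under every alternative. No limma or pair difference that turned sign passed its test, with or without the alternative. Normalizers moved the median of all assays by −0.64, −0.72 and −0.54 (snoRNA202, relative to wt control samples, in P2rx7-/- controls, after SE in wt and after SE in P2rx7-/- mice) and by −0.30 and 0.30 (snoRNA135, in wt post-SE relative to wt control and between the post-SE groups). The medians of the wells, chosen after seeing the data, moved it by −0.39 and −0.16 (snoRNA202) and 0.20 and 0.44 (snoRNA135) after SE in wt and P2rx7-/- mice relative to wt control samples. Up-regulated assays were 57.7%, 65% and 61.1% of those called relative to wt control samples and 79.2% between the post-SE groups. In this order they were 21.1%, 19.2%, 22.4% and 89% with the mean of snoRNA202, 61.7%, 47.5%, 61.3% and 92.5% with that of snoRNA135, 41.5%, 41.3%, 46.5% and 89.6% with the median of the snoRNA202 wells, and 86.7%, 76.6%, 86.8% and 91.2% with that of snoRNA135. The mean over all assays detected in a sample gave 44% in P2rx7-/- controls and 45.7% after SE in P2rx7-/- mice, where the deposited fold changes gave 45.7% and the median Ct 72.1%.

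With the mean of snoRNA202 the limma differences turned to −0.53 (miR-27a*) and −0.51 (miR-27b) for P2rx7-/- relative to wt control, −0.40 (miR-27b*) and −0.18 (miR-24-1*) for P2rx7-/- post-SE relative to wt control, 0.74 (miR-27a*) and 0.36 (miR-27b) for the interaction, −0.21 (miR-23b) for SE averaged over genotypes and −0.16 (miR-27a*) for genotype averaged over treatments, the last 2 also in the permutation test. With that of snoRNA135 they were 0.04 (miR-23b, post-SE groups), 0.18 (miR-27a*, interaction), and, also in the permutation test, −0.08 (miR-23b, SE) and 0.07 (miR-27b, genotype). The median of the snoRNA202 wells gave −0.13 (miR-27a*) and −0.11 (miR-27b) for P2rx7-/- relative to wt control, 0.39 (miR-27a*) and 0.01 (miR-27b) for the interaction, −0.03 (miR-27b*) for P2rx7-/- post-SE relative to wt control and, also in the permutation test, −0.06 (miR-23b, SE). That of snoRNA135 gave 0.17 (miR-27b, SE in wt), 0.07 (miR-27b) and 0.08 (miR-24-2*) for P2rx7-/- post-SE relative to wt control, 0.20 (miR-27b*) for P2rx7-/- relative to wt control, and for genotype 0.26 (miR-24-2*) and, also in the permutation test, 0.25 (miR-27b). The mean over all assays detected in a sample gave −0.06 (miR-27a*) and −0.04 (miR-27b) for P2rx7-/- relative to wt control, −0.02 (miR-27b*) for P2rx7-/- post-SE relative to wt control, 0.07 (miR-27a*) for the interaction and −0.03 (miR-27a*) for genotype. The deposited fold changes gave −0.01, 0.01 and −0.00057 for miR-27a* (P2rx7-/- relative to wt control, interaction and genotype) and −0.02 for miR-27b* (P2rx7-/- post-SE relative to wt control). The median Ct gave 0.01 (miR-27b) and 0.03 (miR-24-2*) for genotype. Array weights gave −0.79, 1.29 and −0.14 for miR-27a (P2rx7-/- relative to wt control, interaction, genotype), −0.12 and −0.04 for miR-27a* (post-SE groups, genotype), −0.04 for miR-23b (SE), 0.07 for miR-27b (SE in wt), −0.20 and −0.53 for miR-24-1* (wt post-SE and P2rx7-/- post-SE relative to wt control) and 0.07 for miR-24-2* (genotype).

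Over all samples and replicate numbers left out, the mean FC of miR-27a ran from 0.71 to 16.1 in P2rx7-/- control and 0.733 to 64.4 in P2rx7-/- post-SE relative to wt control samples, and from 0.637 to 2.58 between the post-SE groups. Its limma differences ran from −1.05 to 3.45, −0.50 to 5.58 and −0.71 to 0.93 in those comparisons, −0.48 to 2.49 for SE in P2rx7-/- mice, −3.24 to 1.26 for the interaction, −0.18 to 3.58 for SE and −0.42 to 2.01 for genotype. For miR-27a* they ran from −0.22 to 0.45 (P2rx7-/- relative to wt control), −0.19 to 0.29 (post-SE groups), −0.64 to 0.51 (interaction) and −0.03 to 0.21 (genotype). For miR-27b the ranges were −0.22 to 0.45 (P2rx7-/- relative to wt control), −0.18 to 0.17 (SE in wt), −0.85 to 0.10 (interaction) and −0.26 to 0.02 (genotype), and for miR-23b −0.49 to 0.12 (post-SE groups), −0.09 to 0.70 (SE in P2rx7-/-), −0.16 to 0.27 (SE) and −0.91 to −0.07 (genotype). For miR-24-1* they were −1.64 to 0.67, −0.39 to 1.87 and −0.71 to 1.36 relative to wt control, −0.31 to 1.94 (SE in P2rx7-/-), −0.99 to 1.32 (interaction), −0.20 to 1.90 (SE) and −0.98 to 0.18 (genotype), and for miR-24-2* −0.62 to 0.02 (P2rx7-/- post-SE relative to wt control) and −0.24 to 0.18 (genotype).

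Left-out ranges of the pair differences for treatment were 0.81 to 1.20 (miR-27a* over miR-27b*), 0.94 to 1.52 (miR-27a* over miR-24-2*), −2.71 to 0.95 (miR-27a* over miR-27a), −0.05 to 0.35 (miR-27b* over miR-27b), −0.06 to 0.60 (miR-23b over miR-27b), −2.29 to 0.0025 (miR-27b* over miR-24-1*) and 0.09 to 3.98 (miR-27a over miR-27b). For genotype they were −0.38 to 0.02, −0.14 to 0.37 and −1.88 to 0.41 for the first 3, −0.81 to 0.10 for miR-23b over miR-27b and −0.37 to 2.18 for miR-27a over miR-27b. Without replicate numbers 1, 2 and 3 in turn, the exact permutation test for treatment gave p = 0.111, 0.0556 and 0.111 for the first pair and 0.0556, 0.222 and 0.0556 for the second, where no p below 0.0556 is possible.

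With the replicate block, the exact permutation test for treatment gave 1.03 for miR-27a* over miR-27b* and 0.88 for miR-27a* over miR-24-2*, both at p = 0.0625, which is the smallest possible for the second, while 0.0312 is for the first. In limma it turned 2 differences of miR-24-1*, to −0.19 for SE in wt mice and 0.55 between the post-SE groups, and it changed no other call. The replicate numbers were not taken to pair the samples, since not every pair correlated above 0.1: over 18 pairs of samples with the same number, deviations from the group means correlated between −0.23 and 0.28, with 4 above 0.1. Of these, 3 (0.25 to 0.28) were among the samples numbered 3 other than wt control, and 6 of the 12 samples were closest to a sample of their own number. What share would be so without pairing was not computed. These correlations do not show that the number is without effect on single assays, such as miR-23a, empty in replicate 1 of every group.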
